A study of Mus musculus with 24 samples.

Results

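Type I interferon response genes were followed in activated mouse T cells that had lost, kept in part or kept the coactivator gene Pou2af1. The 46 genes are interferon-induced genes taken by symbol from a list, and all were found among the 55401 genes of the count table. RNA was sequenced from CD8 and CD4 T cells sorted from the spleen of C57BL/6 mice aged 12 weeks, after 2 days in culture with antibodies to CD3 and CD28. Knockout (KO) cells were CD4.Cre+.Pou2af1fl/fl, heterozygous (Het) cells were CD4.Cre+.Pou2af1fl/+, and wild-type (WT) cells were CD4.Cre-.Pou2af1fl/fl, although their titles read +/+. There were 24 libraries, with 4 for each of 6 combinations of cell type and genotype. KO and Het cells thus share a Cre driven by the Cd4 promoter, which is active in thymocytes before the CD4 and CD8 lineages part, and WT cells do not carry it. The labels do not say that libraries of 1 group came from separate animals. By Xist and Ddx3y each group held libraries of both sexes, so at least 2 animals. Each Het group had 2 female and 2 male libraries, and each KO and WT group 1 female and 3 male. The p-values reflect only how far these samples vary. The RNA is bulk, so fewer cells of a type and less RNA per cell cannot be told apart.

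Type I interferons bind the receptor made of IFNAR1 and IFNAR2, and the kinases JAK1 and TYK2 then phosphorylate STAT2. STAT2 and IRF9 act in the complex ISGF3, which binds interferon-stimulated response elements (ISREs) in promoters and switches on genes that sense viral nucleic acids, block translation or modify proteins. Interferon gamma acts through another receptor and at gamma-activated sites (GAS), and some members, among them the guanylate-binding proteins and immunity-related GTPases, are also strongly induced by it.

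The response element is what most directly ties these genes together in sequence, so promoters were read from RefSeq (GRCm38.p6), from 250 bases before to 50 bases after each gene start. An entry was matched for 37 of the 46 members. The ISRE core, read as GAAA, any 2 bases and GAAA on either strand with overlapping matches allowed, stood in 21 of the 37 (56.8%), against 1079 of 27025 genes in the whole table (3.99%). The nearest match to the start is shown for 10 members from different role groups, read along the gene's strand with the core, or its reverse complement, in capitals.
Stat2, chr10:128270266-128270295, plus strand: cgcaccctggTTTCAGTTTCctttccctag
Ddx60, chr8:61928058-61928087, plus strand: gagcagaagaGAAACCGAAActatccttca
Isg15, chr4:156200865-156200894, minus strand: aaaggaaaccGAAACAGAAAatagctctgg
Ifit1, chr19:34640794-34640823, plus strand: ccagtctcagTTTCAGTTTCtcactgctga
Ifit3b, chr19:34607793-34607822, plus strand: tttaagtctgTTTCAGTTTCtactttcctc
Oas1a, chr5:120907520-120907549, minus strand: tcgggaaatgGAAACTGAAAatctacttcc
Slfn5, chr11:82951937-82951966, plus strand: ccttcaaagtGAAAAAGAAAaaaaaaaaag
Bst2, chr8:71537577-71537606, minus strand: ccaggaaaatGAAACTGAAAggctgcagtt
Irgm1, chr11:48871425-48871454, minus strand: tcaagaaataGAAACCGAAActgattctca
Gbp2, chr3:142620594-142620623, plus strand: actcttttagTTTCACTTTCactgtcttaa
Over the 21 members there were 34 matches, 18 of them on the gene's own strand, and their median position was 56 bases before the start. Matches that began in the last 150 bases before the start numbered 23. A core followed by C stood in 16 members (43.2%), against 0.944% of all genes. The GAS letters, read as TTC, any 3 bases and GAA, stood in 7 members (18.9%), against 9.55% of all genes. A match is a description of letters and not a measured binding site.

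Isg15 and Ifi47 are shown at more length as examples of a promoter with the core and one without. A link with their levels across libraries, given further on, was not tested. The 250 bases before the start of Isg15 hold 3 overlapping cores, which together make the stretch in capitals. Those before Ifi47 hold no core, nor do the 50 bases after its start.
Isg15, chr4:156200819-156201068, minus strand: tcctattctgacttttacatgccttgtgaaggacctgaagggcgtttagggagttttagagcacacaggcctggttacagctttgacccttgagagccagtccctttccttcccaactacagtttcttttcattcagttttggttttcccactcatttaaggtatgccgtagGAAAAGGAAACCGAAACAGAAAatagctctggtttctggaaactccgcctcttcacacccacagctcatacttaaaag
Ifi47, chr11:49076337-49076586, plus strand: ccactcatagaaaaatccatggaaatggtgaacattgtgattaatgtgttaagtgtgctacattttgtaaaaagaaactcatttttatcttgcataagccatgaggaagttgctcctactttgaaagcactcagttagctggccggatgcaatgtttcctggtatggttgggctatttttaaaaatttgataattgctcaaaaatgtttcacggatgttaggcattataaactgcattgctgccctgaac

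**Figure D1:**
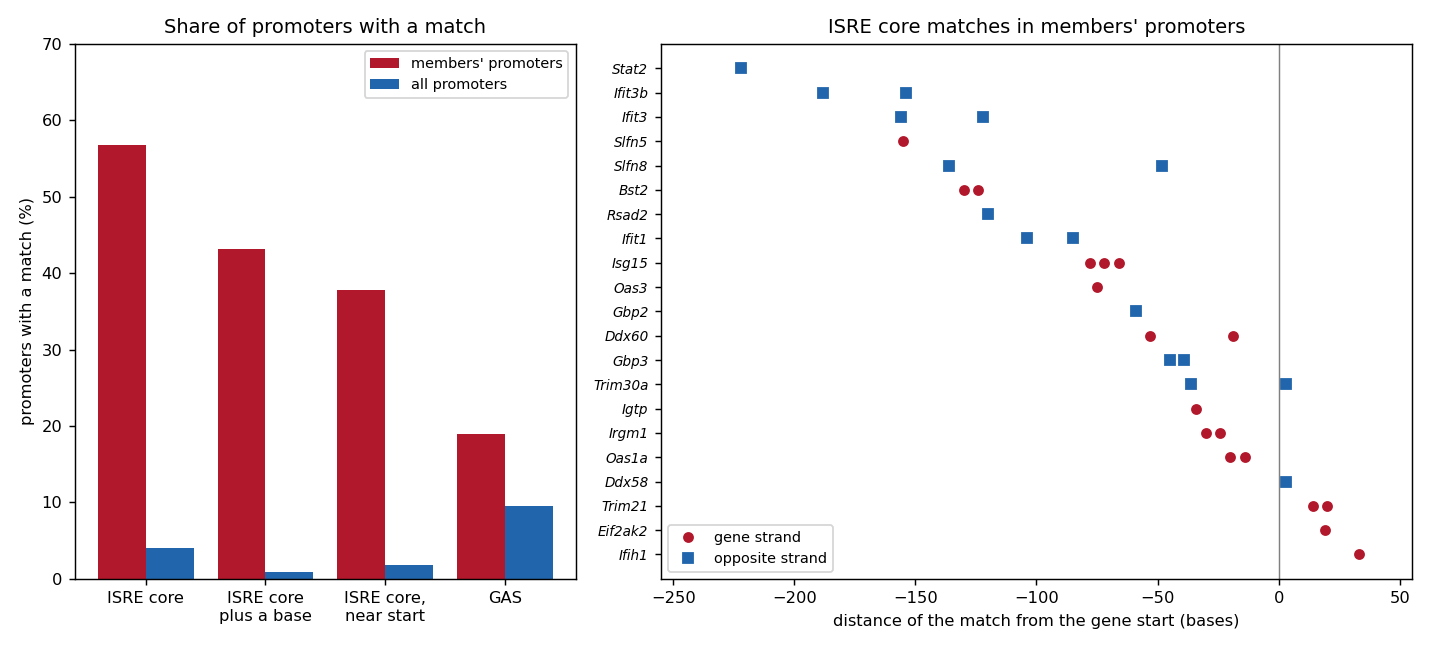
Left, share of promoters (%) with a match among 37 members (red) and among all 27025 genes (blue) for the ISRE core, the core plus C, the core in the last 150 bases before the start, and GAS. Right, position in bases of each of the 34 core matches relative to the gene start, 1 row per member, by strand (circles, gene strand, and squares, opposite strand); most lie shortly before the start.

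Total gene counts per library ran from 11.9 to 21.8 M (median 14), and a count of 3 in a library corresponds to 0.138 to 0.251 CPM, the count per M gene counts after TMM scaling. Pou2af1 was measured at 0.759 to 2.47 CPM in CD8 KO, 13.5 to 16.5 in CD8 Het and 22.1 to 34.6 in CD8 WT libraries, and at 1.30 to 3.79 in CD4 KO, 15.8 to 24.6 in CD4 Het and 28.6 to 49.8 in CD4 WT libraries. The sorts had little of the other lineage's defining RNA, with Cd4 at most 1.73 CPM in CD8 libraries and Cd8a at most 0.669 CPM in CD4 libraries, although Cd8b1 reached 7.58 to 14.4 CPM in CD4 libraries, against 289 to 357 in CD8 libraries. All 46 members passed the filter on low counts and were tested. Together they took 0.358% to 1.05% of a library's gene counts. Per kilobase of exon, the highest levels in CD4 WT cells were those of Gbp2 (409 CPM per kb), a guanylate-binding protein, Ifi27l2a (352), a small membrane protein, and Igtp (296), an immunity-related GTPase. The lowest were Oas2 (0.629), Ifit3b (0.9) and Ddx60 (1.21).

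Some libraries stood apart before any groups were compared. CD8 Het library 3 was the highest of its group for 45 of 46 members, and CD8 Het library 4 the lowest for 39. CD8 KO library 3 and CD8 WT library 3 were each the lowest of their group for 43 members, while CD8 WT library 4 was the highest for 37. Among CD4 libraries, Het library 1 was the lowest for 41 members and Het library 3 the highest for 35. The mean log2 CPM of the members was 5.83, 5.92, 5.21 and 5.96 in CD8 KO libraries 1 to 4, 4.61, 4.68, 5.6 and 4.14 in CD8 Het, and 5.48, 4.94, 4.38 and 5.75 in CD8 WT. It was 6.59, 6.25, 6.17 and 6.83 in CD4 KO, 6.18, 6.75, 6.96 and 6.73 in CD4 Het, and 6.17, 5.92, 6.02 and 6.52 in CD4 WT. Within each genotype the 4 CD8 values lay below the 4 CD4 values, whereas genotypes overlapped within each cell type. Across genotypes the cell types met, with CD8 KO library 4 just above CD4 WT library 2. The SD over 4 libraries was 0.35, 0.61 and 0.61 in CD8 KO, Het and WT cells, against 0.31, 0.33 and 0.26 in CD4 KO, Het and WT cells.

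**Figure D2:**
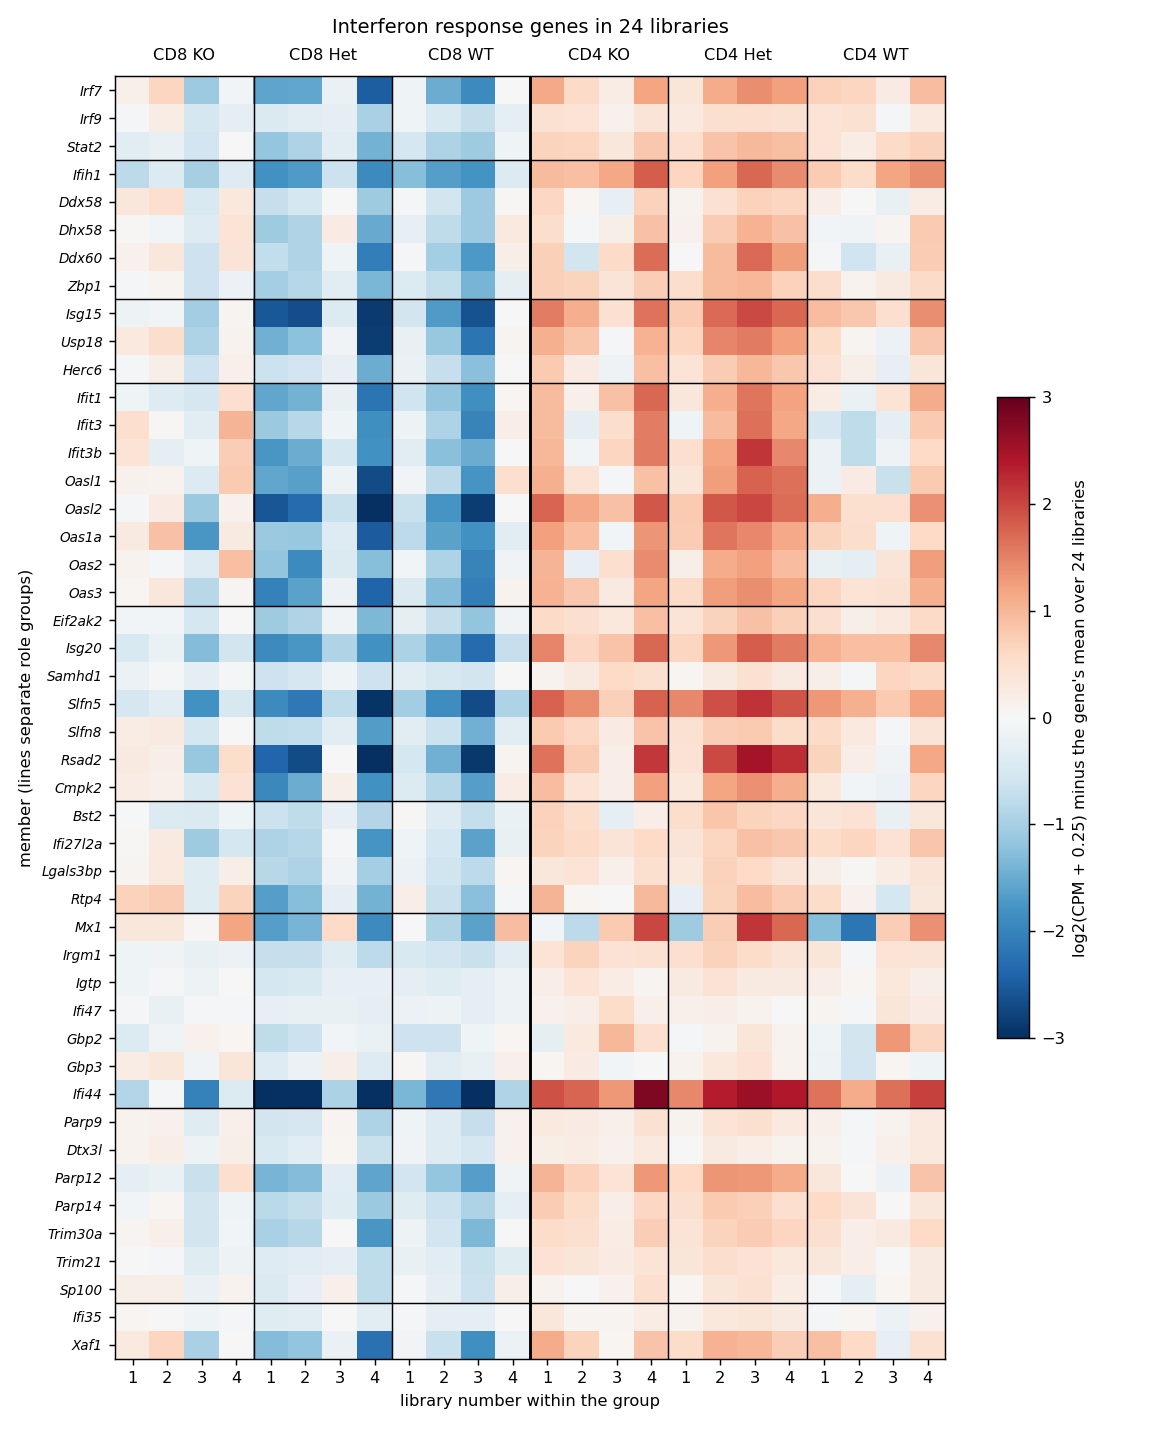
Heat map of the 46 members (rows, by role) in 24 libraries (columns, by group and library number), coloured by log2(CPM + 0.25) minus the gene's mean over all libraries, red above and blue below. CD8 columns are mostly blue and CD4 columns mostly red, and CD8 Het library 3 stands out above the other CD8 Het libraries.

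CD8 cells held less interferon-response RNA than CD4 cells of the same genotype. In edgeR's quasi-likelihood test, called at an adjusted p under 0.05 (Benjamini-Hochberg, over all genes tested), 20 members were lower in CD8 KO than in CD4 KO cells, 45 in CD8 Het than in CD4 Het cells and 27 in CD8 WT than in CD4 WT cells, and none was higher. Of all genes tested, 24.1% were called in KO (11% higher, 13% lower), 34.9% in Het (17.1% higher, 17.8% lower) and 31.2% in WT (14.7% higher, 16.6% lower). The median log2 change of the members was -0.65 in KO, -1.68 in Het and -0.78 in WT, beside 0, 0.01 and -0.02 over all genes. For 19 members in KO, 41 in Het and 21 in WT every CD8 library lay below every CD4 library, which held for 10.5%, 19.2% and 15.9% of all genes. The 20 members called in KO were also called in Het and in WT, 18 were called in Het only, and Gbp2 in none. These calls come from the fit without pairs. With CD8 and CD4 libraries of the same genotype and number as pairs, 33 members were called in KO (29.1% of all genes), 46 in Het (40.2%) and 39 in WT (36.9%). Gbp2 was then called in all 3 genotypes, Irf7, Usp18, Herc6, Rsad2, Cmpk2 and Ifit3b also in KO and WT, and Ddx58 and Dhx58 also in WT. Whether the effect of KO or of Het against WT differs between the cell types is tested further on. The difference between KO and Het was not tested in that way.

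Of the signalling factors, the transcription factor members Stat2, Irf9 and Irf7 had lower estimates in CD8 cells. The receptor and kinase genes, given further on, did not all do so. Stat2, the ISGF3 subunit that is specific to type I and III interferons, differed by -0.90 (SE 0.20, adjusted p = 0.00198) in KO on the log2 scale, by -1.73 (SE 0.21, adjusted p = 1.19e-06) in Het and by -1.09 (SE 0.20, adjusted p = 0.000306) in WT cells, all by edgeR. Its levels had a lowest, median and highest of 51.9, 94 and 139.7 CPM in CD8 libraries, against 160.4, 215.9 and 270.0 CPM in CD4 libraries, with no overlap. Irf9, the DNA-binding subunit, had a lowest, median and highest of 48.1, 76.8 and 110.8 CPM in CD8 libraries, against 90.8, 126.1 and 134.2 CPM in CD4 libraries, and its log2 change was -0.49, -0.92 and -0.65 in KO, Het and WT, all past the test. Irf7, which amplifies interferon production, passed without pairs in Het at -2.31 and in WT at -1.32, and did not in KO at -0.83. With pairs it was called in KO too, as given above.

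Among sensors, Ifih1, which encodes the long double-stranded RNA sensor MDA5, was lower in CD8 cells of every genotype. It had 65.9, 86.1, 56.8 and 87.7 CPM in CD8 KO libraries, against 221.1, 212.8, 255.6 and 402.9 in CD4 KO libraries. It had 32.4, 34.9, 72.7 and 30.4 CPM in CD8 Het libraries, against 178.8, 267.8, 378.7 and 305.6 in CD4 Het libraries. It had 46.8, 36.4, 32.7 and 85.8 CPM in CD8 WT libraries, against 194.9, 168.1, 261.5 and 301.4 in CD4 WT libraries. The groups did not overlap in any genotype, and the edgeR log2 change was -1.90 (SE 0.32, adjusted p = 0.000119) in KO, -2.74 (SE 0.33, adjusted p = 1.52e-06) in Het and -2.19 (SE 0.32, adjusted p = 2.31e-05) in WT. Zbp1, a sensor of Z-form nucleic acids, had a lowest, median and highest of 45.9, 84.8 and 126.7 CPM in CD8 libraries, against 129.8, 186.6 and 240.5 CPM in CD4 libraries. It changed by -0.82 in KO, -1.67 in Het and -1.02 in WT, past the test in all 3. The RIG-I gene Ddx58, its relative Dhx58 and the helicase gene Ddx60 passed in Het only in the fit without pairs.

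Isg15, a ubiquitin-like modifier, showed one of the wider gaps. In KO it had 32.3, 34.3, 17.5 and 38.3 CPM in CD8 libraries, against 105.8, 77.2, 49.9 and 112.8 in CD4 libraries. In Het it had 5.97, 5.52, 27 and 4.68 CPM in CD8 libraries, against 61.7, 118.2, 143.5 and 119.9 in CD4 libraries. In WT it had 24.5, 10.9, 5.65 and 36.1 CPM in CD8 libraries, against 69.1, 63.4, 51.4 and 95.7 in CD4 libraries. The cell types did not overlap in any genotype, and within CD8 Het cells library 3 lay far above the other 3. The edgeR log2 change was -1.52 (SE 0.49, adjusted p = 0.0255) in KO, -3.37 (SE 0.53, adjusted p = 3.79e-05) in Het and -1.86 (SE 0.50, adjusted p = 0.0069) in WT. Usp18, which removes ISG15 from proteins and restrains the receptor, had a lowest, median and highest of 9.5, 48.5 and 100.2 CPM in CD8 libraries, against 61.9, 123.7 and 205.8 CPM in CD4 libraries and, without pairs, passed in Het only. The ISG15 ligase gene Herc6 likewise passed in Het only in the fit without pairs.

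IFIT proteins bind foreign RNA, and OAS proteins make the activator of RNase L. RNA of their genes was lower in CD8 cells, by a wide margin in Het. The median log2 change over these 8 members was -0.76 in KO, -2.48 in Het and -1.20 in WT. In the fit without pairs 1, 8 and 4 of them were called lower, against 13%, 17.8% and 16.6% of all genes. In KO that count is near the share of all genes. Oas3 had a lowest, median and highest of 17.6, 60.9 and 118.9 CPM in CD8 libraries, against 112.2, 177.9 and 247.2 CPM in CD4 libraries. Ifit3b, a copy of Ifit3, had a lowest, median and highest of 0.344, 1.33 and 3.25 CPM in CD8 libraries, against 0.988, 3.01 and 9.05 CPM in CD4 libraries and, without pairs, passed only in Het, at -3.17 (SE 0.51, adjusted p = 4.94e-05) by edgeR. Ifit3b and Ifit3 share 45% and 51.2% of their transcript stretches of 50 bases with another gene, and Oas1a shares 57.6%, most with Oas1g, so their counts rest on the remaining sequence and are uncertain.

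The widest single changes were those of Slfn5 and Ifi44. Slfn5, a Schlafen family protein, had 27.4, 30.7, 10.8 and 28 CPM in CD8 KO libraries, against 132.3, 102, 64 and 134.2 in CD4 KO libraries. It had 10.2, 8.57, 23 and 4.82 CPM in CD8 Het libraries, against 106.3, 149.5, 176 and 144.8 in CD4 Het libraries. It had 18.8, 10.5, 5.84 and 20.4 CPM in CD8 WT libraries, against 96.8, 81.5, 67.2 and 89.9 in CD4 WT libraries. No CD8 library reached the lowest CD4 library, and the edgeR change was -2.18 (SE 0.38, adjusted p = 0.000184), -3.64 (SE 0.41, adjusted p = 5.63e-07) and -2.59 (SE 0.40, adjusted p = 3.21e-05) in KO, Het and WT. Ifi44, whose protein resembles GTPases, had 6, 10.7, 2.54 and 8.42 CPM in CD8 KO libraries, against 42.5, 38.5, 28.1 and 80.2 in CD4 KO libraries. It had 1.04, 0.779, 5.66 and 0.344 CPM in CD8 Het libraries, against 30.9, 58.6, 67.8 and 60.8 in CD4 Het libraries. It had 4.19, 2.36, 0.879 and 5.86 CPM in CD8 WT libraries, against 35.3, 24.6, 35.5 and 47.1 in CD4 WT libraries. Its edgeR change was the largest of any member in each genotype, at -2.80 (SE 0.51, adjusted p = 0.000304), -4.83 (SE 0.60, adjusted p = 1.94e-06) and -3.42 (SE 0.55, adjusted p = 6.37e-05) in KO, Het and WT. Isg20, an exonuclease, changed by -1.85, -2.99 and -2.34, and had a lowest, median and highest of 2.89, 6.96 and 13.3 CPM in CD8 libraries, against 23.5, 35 and 54.4 CPM in CD4 libraries.

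Smaller changes also passed. Eif2ak2, the translation-blocking kinase PKR, had a lowest, median and highest of 94.7, 181.9 and 238.3 CPM in CD8 libraries, against 272.8, 349.4 and 453.7 CPM in CD4 libraries. Samhd1, which depletes deoxynucleotides, had a lowest, median and highest of 478.5, 595.6 and 727 CPM in CD8 libraries, against 702.3, 887.6 and 1153.4 CPM in CD4 libraries and changed by -0.53, -0.72 and -0.68 in KO, Het and WT. Both passed in every genotype. Irgm1, an immunity-related GTPase of the autophagy machinery, had 235.2, 238.2, 217.9 and 225.9 CPM in CD8 KO libraries, against 340.1, 404.2, 348.3 and 349.1 in CD4 KO libraries. It had 158.8, 157.4, 199.7 and 149.4 CPM in CD8 Het libraries, against 366.1, 416.6, 374.3 and 334.5 in CD4 Het libraries. It had 185.8, 171.3, 160.5 and 201.7 CPM in CD8 WT libraries, against 331.4, 249.4, 339.9 and 333.5 in CD4 WT libraries. The cell types did not overlap, and this member had the lowest adjusted p in each genotype, with edgeR changes of -0.67 (SE 0.10, adjusted p = 2.11e-05), -1.17 (SE 0.10, adjusted p = 8.75e-09) and -0.79 (SE 0.10, adjusted p = 2.32e-06) in KO, Het and WT. Its relatives Igtp (-0.34, -0.67 and -0.45) and Ifi47 (-0.38, -0.36 and -0.35) also passed in KO, Het and WT.

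Parp14 and Parp12, which transfer ADP-ribose, and Trim21, a cytosolic antibody receptor, were lower in CD8 cells of all genotypes. Parp14 had a lowest, median and highest of 251.9, 396.8 and 571.2 CPM in CD8 libraries, against 538.6, 782.8 and 933.3 CPM in CD4 libraries, and its log2 change was -0.72, -1.36 and -0.87. Trim21 had a lowest, median and highest of 38.4, 51.6 and 64.6 CPM in CD8 libraries, against 63.9, 82.9 and 93 CPM in CD4 libraries, and Parp12 had a lowest, median and highest of 5.58, 11.6 and 25.3 CPM in CD8 libraries, against 15.8, 31.1 and 45.6 CPM in CD4 libraries. Bst2, the tetherin that holds virus particles at the membrane, had a lowest, median and highest of 63.9, 89.1 and 121 CPM in CD8 libraries, against 98.1, 164.5 and 207.9 CPM in CD4 libraries and passed in each genotype. Slfn8, another Schlafen protein, had a lowest, median and highest of 40.8, 98.2 and 159.8 CPM in CD8 libraries, against 127.9, 195.5 and 240.5 CPM in CD4 libraries and also passed in each. Mx1, a dynamin-like GTPase, had a lowest, median and highest of 6.47, 25.1 and 57.2 CPM in CD8 libraries, against 5.36, 41.5 and 110.4 CPM in CD4 libraries, and Gbp3, a guanylate-binding protein, had a lowest, median and highest of 45.4, 58.3 and 76.9 CPM in CD8 libraries, against 39.8, 62.4 and 80.6 CPM in CD4 libraries. Both passed in Het only, with or without pairs. Ifi35 had a lowest, median and highest of 50, 60.5 and 66.9 CPM in CD8 libraries, against 57.4, 69.8 and 83.2 CPM in CD4 libraries, and Dtx3l, a ubiquitin ligase that partners Parp9, had a lowest, median and highest of 179.3, 260.4 and 325.3 CPM in CD8 libraries, against 277.4, 319.5 and 351.4 CPM in CD4 libraries. The remaining members of these groups, among them Trim30a, Sp100, Cmpk2, Lgals3bp and Xaf1, also had a lower median over 12 CD8 than over 12 CD4 libraries, as did 46 of 46 members. In 13 of the 46, among them Isg15, Slfn5, Isg20 and Irgm1, every CD8 library of any genotype lay below every CD4 library. The share of all genes was not computed for either count.

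**Figure D3:**
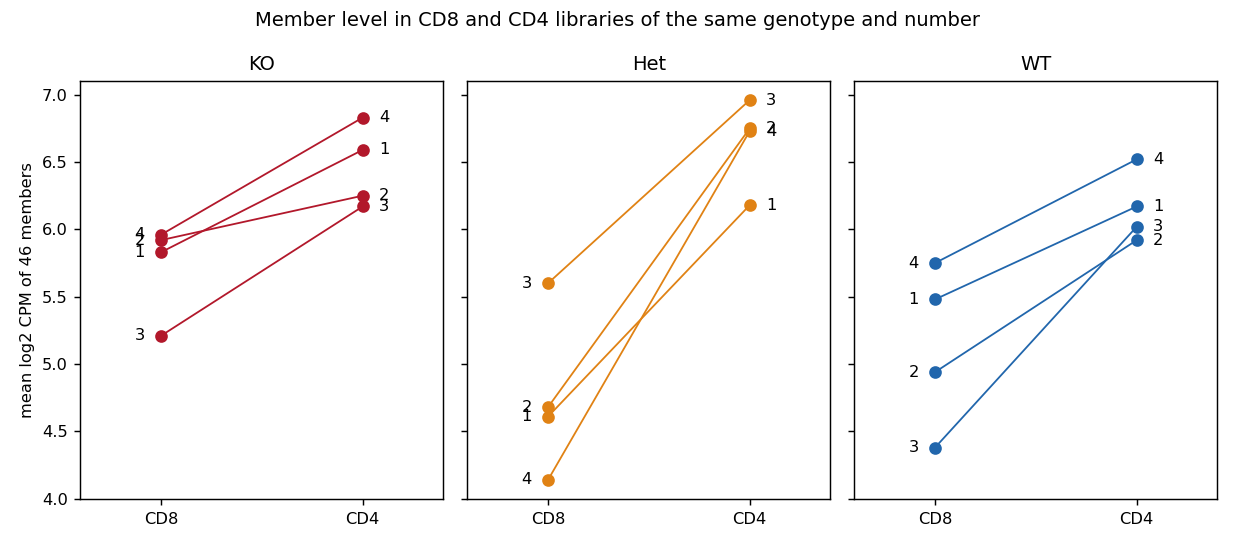
Mean log2 CPM of the 46 members (vertical axis) in the CD8 library (left) and the CD4 library (right) of the same genotype and number, joined by a line, for KO, Het and WT. Every line is higher in CD4, with the CD8 minus CD4 difference between -0.96 and -0.33 in KO, -2.60 and -1.35 in Het, and -1.64 and -0.69 in WT.

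The gap rested in part on single libraries in KO. Without CD8 KO library 3, 12 members were called in KO (20.4% of all genes), and without CD4 KO library 4, 13 (19.9%). Every line in the plot of paired levels has a CD4 end above its CD8 end. NK cell markers moved with the cell type: their summed level was 43.7 to 90.6 CPM in CD8 libraries and 12.3 to 35.2 in CD4 libraries, nearly all of it Eomes, which activated CD8 T cells also make. Dendritic cell markers summed to 9.66 to 21.7 CPM in CD8 libraries and 4.88 to 13.4 in CD4 libraries. Among them Zbtb46 had group means of 5.82 to 8.24 CPM in CD8 and 6.22 to 9.7 in CD4 cells. Batf3 had group means of 5.06 to 6.35 CPM in CD8 and 0.458 to 0.667 in CD4 cells, and Itgax 0.984 to 1.76 and 0.0176 to 0.11. Flt3, Xcr1 and Clec9a were at most 0.855 CPM in any library. Plasmacytoid dendritic cell markers, 6 genes, summed to 13.4 to 16.9 CPM in CD8 libraries and 8.92 to 23.3 in CD4 libraries. Tcf4 (2.08 to 5.24 CPM in CD8 and 3.45 to 14.6 in CD4 libraries), Spib, Il3ra and, in CD8 libraries, Ccr9 made up nearly all of it, while Siglech had 1 count in 1 CD8 KO library and 0 in the other 23 libraries, and Klk1 had 0 in all. The part of these 3 lists in the gap was not tested.

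Within CD8 cells the estimates for the members lay above 0 in KO against Het and against WT, but none passed the test. In KO against Het, 46 of 46 log2 changes were above 0 (49% of all genes), with a median of 0.77, and 38 had an unadjusted p under 0.05 (6.84% of all genes), while 0 were called after adjustment (0.0159% of all genes). No library overlapped between KO and Het for Ifit3b, Oas2, Irgm1 and Igtp, which held in that direction for 1.47% of all genes. In KO against WT, 46 were above 0 (50.9% of all genes), the median was 0.54, 6 had an unadjusted p under 0.05 (2.89%) and 0 were called (0.0634%). In Het against WT, 0 were above 0 (51.9% of all genes), the median was -0.30, and 0 had an unadjusted p under 0.05 (1.74%) or were called (0.0634%). These 3 comparisons share libraries, each group entering a pair of them, as do those in CD4 cells, so their values are not independent.

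Irgm1 gave the lowest p in KO against Het and in KO against WT. As given above, its 4 CD8 KO libraries lay above all CD8 Het and all CD8 WT libraries. By edgeR its log2 difference was 0.46 (SE 0.09, adjusted p = 0.439) against Het and 0.34 (SE 0.09, adjusted p = 0.987) against WT. Rtp4, a chaperone of membrane receptors, had 19.4, 20.5, 9.23 and 19.3 CPM in CD8 KO libraries, 3.66, 4.82, 9.82 and 4.34 in CD8 Het and 13.7, 7.38, 4.83 and 11.7 in CD8 WT libraries. It was lowest in KO in library 3, which overlapped the Het and WT libraries, and its edgeR log2 difference was 1.59 (SE 0.37, adjusted p = 0.622) against Het and 0.85 (SE 0.36, adjusted p = 0.987) against WT. Ifit3b had 2.57, 1.48, 1.69 and 3.25 CPM in CD8 KO libraries, 0.373, 0.496, 1.21 and 0.344 in CD8 Het and 1.45, 0.628, 0.502 and 1.86 in CD8 WT libraries. KO did not overlap Het, at 1.89 (SE 0.48, adjusted p = 0.622) by edgeR, but these levels rest on 5 to 16 counts in Het and 21 to 47 in KO libraries. Oas1a had 5.64, 8.69, 1.2 and 5.66 CPM in CD8 KO libraries, 2.01, 1.98, 3.47 and 0.62 in CD8 Het and 2.59, 1.34, 1.13 and 3.58 in CD8 WT libraries, with overlap throughout.

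The role groups had different medians in CD8 KO against Het, which were not tested against each other. The IFIT and OAS family had a median log2 change of 1.48, the ISG15 system 1.20, and the transcription factors 0.63. The GTPases had 0.38 and the group of ADP-ribosylation, TRIM and nuclear body proteins 0.45. The lowest member was Ifi47, at 0.15, and the highest Ifit3b, at 1.89. In Het against WT the order was the same at its ends, with a median of -0.62 in the IFIT and OAS family and -0.11 in the GTPases. Oasl1 had the lowest Het against WT value, at -1.02, and had 4.41, 4.31, 2.96 and 7.04 CPM in CD8 KO libraries, 1.19, 1.13, 3.55 and 0.413 in CD8 Het and 3.73, 2.2, 1 and 5.72 in CD8 WT libraries. In mouse its protein holds back translation of Irf7.

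**Figure D4:**
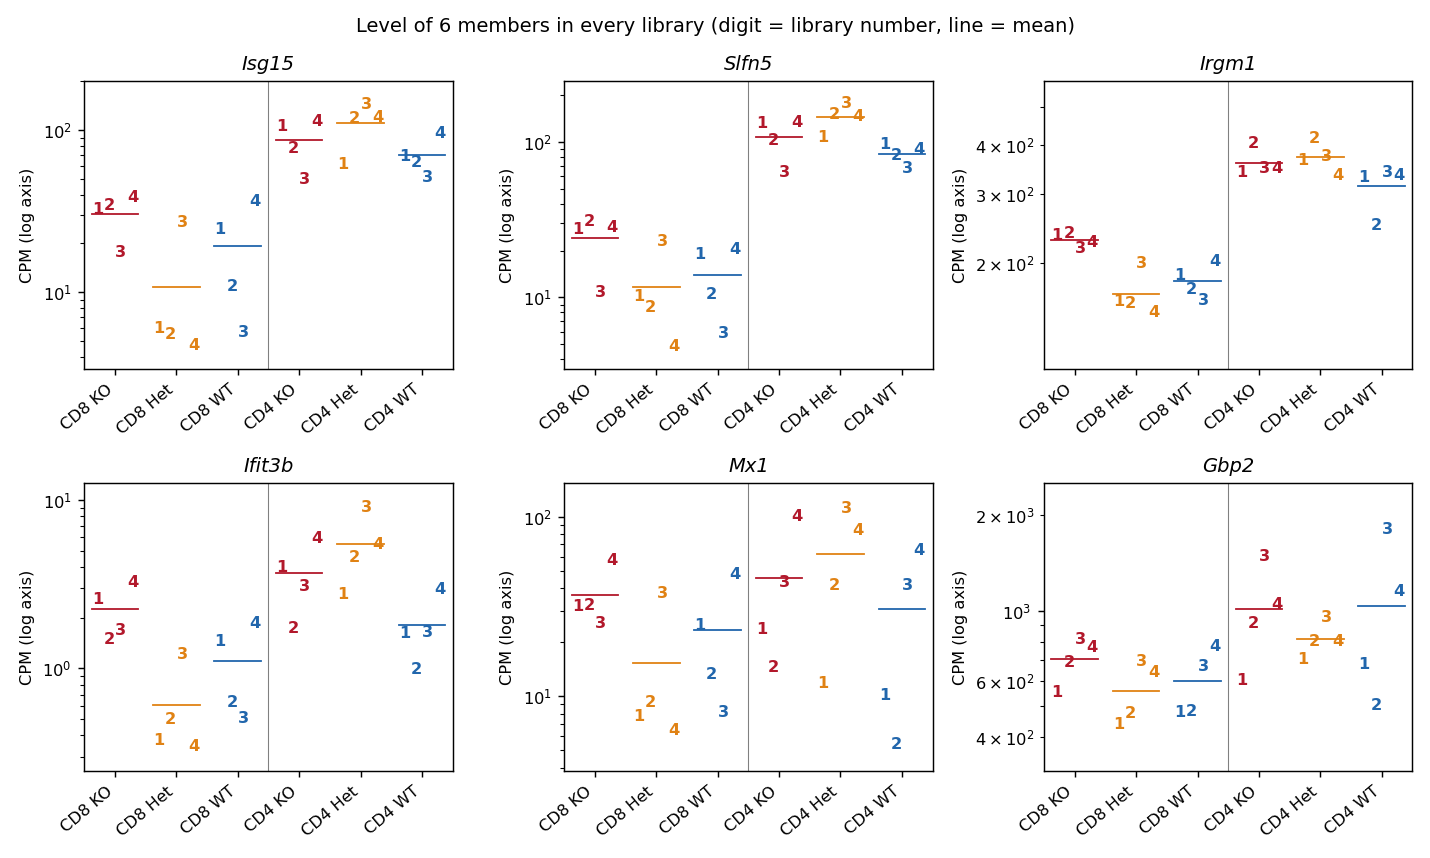
CPM on a log axis of 6 members in the 24 libraries, by group, each digit a library number and each line a group mean (KO red, Het orange, WT blue). CD8 Het library 3 lies above the other CD8 Het libraries for Isg15, Slfn5, Irgm1, Ifit3b, Mx1 and Gbp2, while libraries 3 and 4 lie above libraries 1 and 2 for Mx1 in each CD4 group.

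The count of calls in KO against Het moved with single libraries. Without CD8 Het library 3 the median was 1.11 and 1 member, Irgm1, was called (adjusted p = 0.0337 by edgeR, range 0.0143 to 0.998 over 17 alternatives). That fit called 0.0312% of all genes. Using only libraries 1 and 2, a choice made after seeing the data, 33 members were called (1.93% of all genes), with 2 libraries a group. There CD8 Het libraries 1 and 2 were both female by Xist and Ddx3y, while CD8 KO library 1 was male and library 2 female. With libraries 3 and 4 the count was 0, with a median of 0.47. With sex as a covariate over all CD8 libraries, 0 were called, with a median of 0.73. By DESeq2, 2 members were called over all libraries (0.101% of all genes). They were Irgm1 (adjusted p = 0.0143, same range) and Rtp4 (0.0158, range 0.0158 to 0.998). DESeq2 called 0 in KO or Het against WT. Without CD8 WT library 3 the median of KO against WT was 0.30, with 0 called. The median of Het against WT was -0.62 without CD8 Het library 3, -0.48 without CD8 WT library 3, -0.13 without CD8 Het library 4 and -0.07 without CD8 WT library 4, with 0 called in each.

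In CD4 cells most estimates lay above 0 in the Cre-carrying groups against WT, and none passed the test. In Het against WT, 43 of 46 members were above 0 (44.7% of all genes), with a median log2 change of 0.42, 24 had an unadjusted p under 0.05 (8.68%) and 0 were called (0.0865%). In KO against WT, 44 were above 0 (47.9%), the median was 0.25, 4 had an unadjusted p under 0.05 (2.44%) and 0 were called (0.0708%). In KO against Het, 6 were above 0 (52.6%), the median was -0.15, and 0 had an unadjusted p under 0.05 (3.66%) or were called (0.0157%). By these medians the groups stood as Het, KO and WT from high to low, while in CD8 cells they stood as KO, WT and Het.

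Slfn5, Ifit3b and Gbp3 had the lowest p in Het against WT. By edgeR, Slfn5 differed by 0.78 (SE 0.22, adjusted p = 0.341), and the 4 CD4 Het libraries, given above, lay above every CD4 WT library. Ifit3b had 2.75, 4.55, 9.05 and 5.47 CPM in CD4 Het libraries, 3.98, 1.73, 3.06 and 5.93 in CD4 KO and 1.62, 0.988, 1.64 and 2.96 in CD4 WT libraries. Het library 1 overlapped WT library 4, and the difference was 1.56 (SE 0.44, adjusted p = 0.352) by edgeR. Gbp3 had 64.8, 74, 80.6 and 64.2 CPM in CD4 Het libraries, against 54, 39.8, 62 and 54.9 in CD4 WT libraries, without overlap, and differed by 0.43 (SE 0.13, adjusted p = 0.364) by edgeR. Oas1a and Bst2 also did not overlap in Het against WT, which held for 3.25% of all genes. By DESeq2, Ifit3b and Slfn5 were called in Het against WT (adjusted p 0.0486 and 0.0495, ranges 0.0486 to 0.858 and 0.0495 to 0.839 over 17 alternatives). That fit called 0.555% of all genes.

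In KO against WT the lowest p values were those of Parp12, Slfn8 and Ifi35, an interferon-induced leucine zipper protein. Parp12 had 36.5, 29.4, 24 and 44.7 CPM in CD4 KO libraries, against 22.9, 17.9, 15.8 and 32.7 in CD4 WT libraries, with overlap and an edgeR log2 difference of 0.59 (SE 0.25, adjusted p = 1). The log2 difference was 0.34 for Slfn8 and 0.20 for Ifi35. By DESeq2, 0 members were called in KO against WT or against Het. Irgm1 was the single member without overlap in KO against WT in each cell type, which held in the same direction for 0.621% of all genes in CD4 and 1.36% in CD8 cells. In CD4 cells the margin was slight, with a lowest KO value of 340.1 CPM and a highest WT value of 339.9 CPM.

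**Figure D5:**
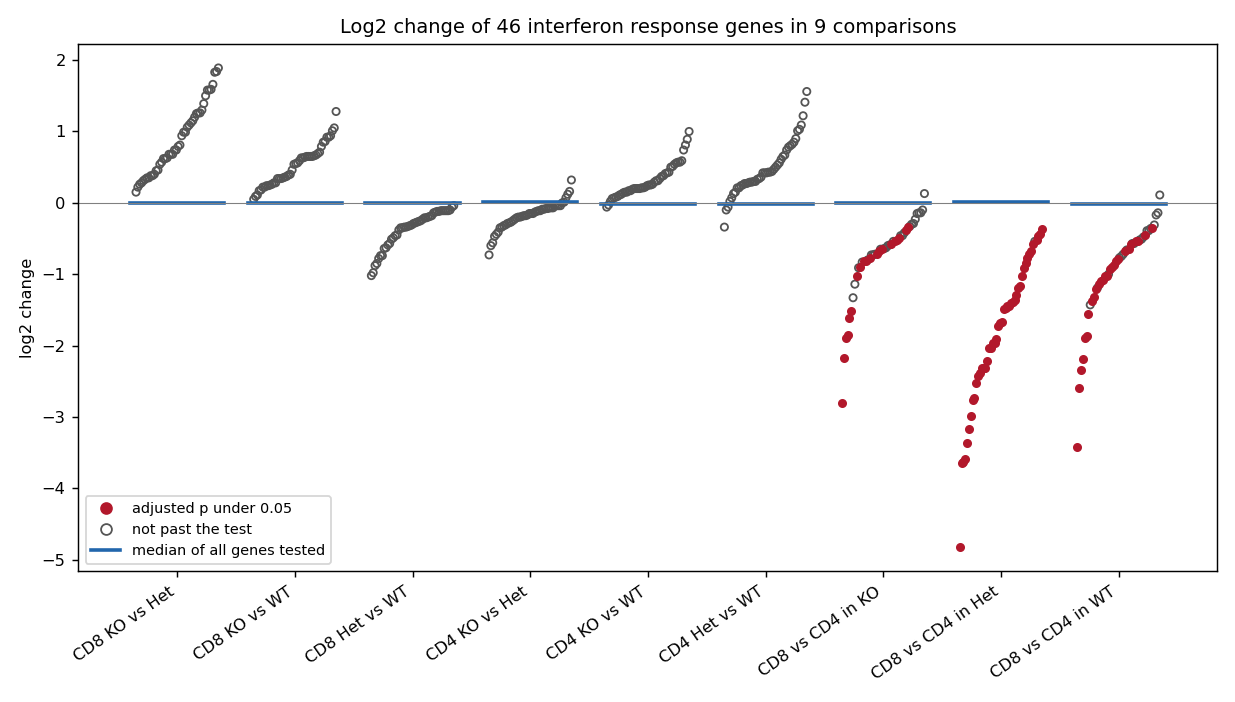
Log2 change of the 46 members (points) in 9 comparisons, each column ordered by size, with the median over all genes tested as a blue line. Filled points passed the test at an adjusted p under 0.05, which happened only in CD8 against CD4, and CD8 KO against Het lies wholly above 0.

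Whether genotype acts differently in the cell types was tested as a difference of effects, for Het and for KO each against WT. The Het against WT effect was lower in CD8 than in CD4 cells for 45 of 46 members (median -0.70), while it lay above 0 for 53.8% of all genes. Of the members, 19 had an unadjusted p under 0.05 (4.05% of all genes) and 0 were called (0.00753%). Ifit3b had the lowest p, with a difference of -2.44 (SE 0.72, adjusted p = 1) by edgeR, followed by Oasl1 at -2.25 (SE 0.71, adjusted p = 1) and Ifi35 at -0.38 (SE 0.13, adjusted p = 1). By DESeq2 also 0 were called, and with same-numbered libraries as pairs 1 was, Ifit3b (adjusted p = 0.0434 by edgeR, range 0.0434 to 1). The KO against WT effect was higher in CD8 for 42 members (51.2% of all genes, median 0.16), with 0 at an unadjusted p under 0.05 (1.72%) and 0 called (0.00753%), also by DESeq2. Without CD8 WT library 3 it was above 0 for 25 members (median 0.02), and without any other single library for 31 to 44. Oas1a had the lowest p there, at 0.76 (SE 0.64, adjusted p = 1) by edgeR.

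Library number was associated with the levels of a few members. Over CD4 libraries, with genotype in the fit, number was called for Mx1 (adjusted p = 0.00603 by edgeR), Ifih1 (0.0176), Samhd1 (0.0184) and Gbp2 (0.0247), 4 of 46 members, against 18% of all genes. Over CD8 libraries it was called for Gbp2 alone (adjusted p = 0.013 by edgeR), against 2.89% of all genes. In both of these fits the share of members was near or under that of all genes. Without the filter on low counts, 35 members were called in CD4 cells, against 13.2% of all genes. Mx1 had 23.4, 14.4, 43.2 and 100.2 CPM in CD4 KO libraries 1 to 4, 11.8, 41.5, 110.4 and 83.3 in CD4 Het and 10.1, 5.36, 41.5 and 64.8 in CD4 WT libraries. In each genotype libraries 3 and 4 lay above libraries 1 and 2, and the log2 change of 3 and 4 over 1 and 2 was 2.15 (SE 0.31, adjusted p = 0.000279) by edgeR. C57BL/6 mice carry a truncated Mx1 allele, so this transcript does not encode the full antiviral protein. Gbp2 had 604.7, 910, 1482.9 and 1044.8 CPM in CD4 KO libraries, 703.6, 799.9, 952.5 and 798.1 in CD4 Het and 679.8, 504.6, 1803.6 and 1146.3 in CD4 WT libraries. Libraries 3 and 4 lay above 1 and 2 in KO and WT, and in Het library 4 was just below library 2, with an edgeR change of 0.76 (SE 0.18, adjusted p = 0.00616). In CD8 cells Gbp2 had 554.9, 687.5, 812.6 and 764.2 CPM in KO, 438.4, 473.6, 691.8 and 638.6 in Het and 479.5, 483, 670 and 769.6 in WT libraries. All 6 libraries numbered 3 and 4 lay above the libraries numbered 1 and 2 of their own genotype, at 0.49 (SE 0.06, adjusted p = 0.000484) by edgeR.

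By that simpler split, libraries 3 and 4 against 1 and 2, 10 members were higher (17.9% of all genes) and Bst2 lower (16.9%) in CD4 cells, at -0.32 (SE 0.12, adjusted p = 0.0466) by edgeR for Bst2. Gbp2 was the member that was higher in CD8 cells (8.98% of all genes). Within CD4 cells genotype, number and the remainder took a median of 29.4%, 24% and 42.7% of a member's spread. Within CD8 cells they took 39.4%, 5.44% and 55%. Such a share lies above 0 even for a factor without effect, so these values are a description. What the numbers mark is not given in the labels.

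Over all 24 libraries the members varied together, apart from 3 GTPases, but in CD4 cells alone more members stood apart. The deviations of each member's log2 CPM from the group means were correlated with the mean deviation of the other 45 over the 24 libraries. The median r was 0.90, and 23 members reached 0.9, among them Oasl2, Eif2ak2, Rsad2 and Parp9 at 0.98. Igtp (0.18), Gbp2 (0.05) and Ifi47 (0.00) were below 0.5. Over the 12 CD4 libraries alone, r was also below 0.5 for Irgm1 (0.14), Bst2 (0.29), Gbp3 (0.32), Samhd1 (0.36) and Irf9 (0.39). The same held for Parp14, Trim21 and Xaf1 (each 0.49). Over the 12 CD8 libraries these members had an r of 0.77 to 0.96. Ifi47 had 336, 295.4, 335.3 and 332.7 CPM in CD8 KO, 290.8, 296.1, 296.6 and 287.2 in CD8 Het and 306.5, 313.4, 282.5 and 310.7 in CD8 WT libraries, a narrow span beside that of Isg15. This is a description over 24 libraries in which CD8 and CD4 libraries of a genotype and number also deviate together. By likeness to the members' mean, the nearest genes outside the lists, among 13149, were Gm6548, Phf11a, Agrn and AW011738 (each 0.94), then Sdc3 (0.93), H2-T24 (0.92), Usp25 (0.91), Zc3h7a (0.89), and Plekha2 and BC147527 (each 0.87). By r class, the ISRE core stood in 10 of 20 promoters of members at 0.9 and over, 9 of 14 from 0.5 to under 0.9 and 2 of 3 below 0.5. Those with a core below 0.5 were Gbp2 and Igtp, and the one without was Ifi47.

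Interferon genes themselves were near the limit of counting. Over 17 type I and III interferon genes the counts summed to 2, 1, 3 and 4 in CD8 KO libraries, 2, 0, 5 and 2 in CD8 Het and 4, 1, 3 and 1 in CD8 WT libraries. They summed to 17, 5, 9 and 17 in CD4 KO, 8, 17, 30 and 23 in CD4 Het and 2, 5, 7 and 21 in CD4 WT libraries. Several of these genes are near-identical copies, so uniquely placed reads undercount them. Ifng, the type II interferon of cytotoxic T cells, averaged 247 ± 20.8 CPM in CD8 KO, 295 ± 42.8 in CD8 Het and 261 ± 40.7 in CD8 WT, against 2.91 ± 1.89 in CD4 KO, 5.74 ± 1.09 in CD4 Het and 1.95 ± 1.09 in CD4 WT cells (SD, n = 4 each).

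Of a list of 115 other genes of the interferon pathway, 93 were tested in CD4 cells and 91 in CD8 cells, and 0 were called by edgeR in any of the 6 comparisons of genotype. At an unadjusted p under 0.05 there were 9 in CD8 KO against WT (2.89% of all genes), 1 in CD8 Het against WT (1.74%) and 36 in CD8 KO against Het (6.84%). In CD4 cells there were 5 in KO against WT (2.44%), 21 in Het against WT (8.68%) and 3 in KO against Het (3.66%). In CD8 against CD4, 8 were higher and 33 lower in KO (11% and 13% of all genes), 8 higher and 59 lower in Het (17.1% and 17.8%), and 8 higher and 44 lower in WT (14.7% and 16.6%). The receptor subunit gene Ifnar1 did not pass, with log2 changes of 0.26, 0.10 and 0.12 in KO, Het and WT. Its partner Ifnar2 was higher, by 0.74, 0.52 and 0.59. Of the kinase genes, Tyk2 did not pass, with log2 changes of 0.05, -0.04 and -0.10, and Jak1 was higher by 0.22, 0.34 and 0.24. On the interferon gamma side, Ifngr1 was higher by 1.64, 1.34 and 1.55, Ifngr2 lower at -1.62, -1.95 and -2.23, and Jak2 lower at -1.48, -1.67 and -1.68. The transcription factor gene Irf1 was lower in all 3, at -0.39, -0.75 and -0.66.

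Position and shared sequence bear on how the counts can be read. The annotation places 7 groups of neighbours, no more than 100 kb apart, which hold 16 members, such as Ifit3, Ifit3b and Ifit1 within chr19:34583531-34650009 and Parp14, Dtx3l and Parp9 within chr16:35832874-35972605 (GRCm38). Exon bases are shared with another gene by 17 members, and Parp9 and Dtx3l overlap on opposite strands over 458 bases, so their reads could not be told apart without the strand setting. Of the 46 identifiers, 44 match the GENCODE M21 annotation with the same coordinates.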

How the data were processed

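RNA-seq was made from 24 libraries of sorted and activated CD8 and CD4 T cells. The deposited values are raw counts of reads per gene from STAR 2.7.1a on GRCm38, after trimming with Trimmomatic 0.35, per the submitters' processing notes, which also name DESeq2 1.26.0. Which annotation was counted, and whether strand was used, is not stated in the notes or labels. Reads assigned to no gene (31.6% to 35.0% of each library) and to several places (17.5% to 18.5%) were left out of library sizes and tests.

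The 46 members and the other lists were chosen with earlier results of these data known. Counts were fitted with edgeR 4.0.16 in R 4.3.3 (filterByExpr with a minimum count of 10, TMM scaling, quasi-likelihood F test), with genotype within a cell type, or with all 6 groups for comparisons of cell types. This left 12612 genes in CD8 cells, 12719 in CD4 cells and 13288 over all libraries. P-values were adjusted by Benjamini-Hochberg over all genes of a fit, and an adjusted p under 0.05 was called. The standard error was taken as the size of the log2 change over the root of F. DESeq2 1.42.0, other scalings and filters, a replicate block and leaving out each library were the alternatives. Values are given for members called in a comparison (up to 12 by lowest p), the 3 of lowest p where none was called, and the highest of each role group; Isg15, Irf7 and Ddx60 were added with their values seen.

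Libraries of the same number deviated from their group means together in CD4 cells (r from 0.132 to 0.58, all above 0.1) and between CD8 and CD4 libraries of a genotype (12 of 12 pairs above 0.1, from 0.148 to 0.451). By Xist and Ddx3y the sex of the CD8 and CD4 library also matched in 12 of 12 such pairs, with both sexes in each group. Within CD8 cells 3, 2 and 3 of 4 pairs were above 0.1 in the 3 comparisons, so the numbers were not taken to pair those libraries. No pair of libraries agreed within sampling noise, with a chi-square of at least 2.62 per degree of freedom.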

Additional observations from a re-analysis of the deposited data

Results flagged for a closer look

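Within groups of 4 libraries, 174 groups of values were screened for a library far from the other 3 (Dixon's test at the 95% level), and 14 were found; chance gives about 1 in 20 groups. CD8 Het library 3 was far above the other CD8 Het libraries for 6 members. There Parp12 had 14.1 CPM, against 5.79 to 7.15 in the other 3, Ifi35 had 64.1, against 50 to 51.9, and Mx1 had 37.4, against 6.47 to 9.28. Ifih1 had 72.7 CPM, against 30.4 to 34.9, Isg20 had 8.08, against 3.88 to 4.39, and Ifi44 had 5.66, against 0.344 to 1.04.

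CD8 KO library 3 was far below the other CD8 KO libraries for 3 members. Slfn5 had 10.8 CPM there, against 27.4 to 30.7, Rtp4 had 9.23, against 19.3 to 20.5, and Eif2ak2 had 167.2, against 229.1 to 238.3.

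The other 5 are immunity-related GTPases. Irgm1 was high in CD4 KO library 2, at 404.2 CPM against 340.1 to 349.1, and low in CD4 WT library 2, at 249.4 against 331.4 to 339.9. Igtp was high in CD4 Het library 2, at 710.9 CPM against 629.9 to 638. Ifi47 was low in CD8 KO library 2, at 295.4 CPM against 332.7 to 336, and high in CD4 KO library 3, at 510.6 against 376.2 to 395.5.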

How the results depend on the processing

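No median and no value of a member named in its comparison reversed. Other members did cross 0: the count above 0 in CD8 Het against WT was 0, but 5 without CD8 Het library 4 and 4 without CD8 WT library 4, in CD4 KO against Het it was 6, but 16 with libraries 1 and 2 only, and for the KO effect in CD8 minus CD4 it was 42, but 25 without CD8 WT library 3. Ifi27l2a in CD8 KO against Het was -0.08 with libraries 3 and 4 only. Of the values for named members, 919 kept their direction and side of the threshold, 9 became called and 15 lost their call. All 178 medians kept their sign and moved by less than the SD of the members' mean log2 CPM between replicates. That SD was 0.3 in CD4 cells, 0.54 in CD8 cells and 0.44 for both. It is larger than several of the medians, so this does not show that they were stable. The median of CD8 Het against WT ran from -0.62 to -0.07, and that of the KO effect in CD8 minus CD4 from 0.02 to 0.39. The replicate block changed no count within a cell type, with 0 members called in the 6 genotype comparisons; for CD8 against CD4 it gave 33 in KO, against 20, and 46 in Het and 39 in WT, and for the Het effect in CD8 minus CD4 it gave 1, against 0. DESeq2 called 2 members in CD8 KO against Het (0.101% of all genes) and 2 in CD4 Het against WT (0.555%). A covariate for libraries 3 and 4 against 1 and 2 gave 1 in CD4 Het against WT (0.621%). CD8 KO against Het gave 33 with libraries 1 and 2 only (1.93% of all genes), and 0 to 1 leaving out 1 library (1 without CD8 Het library 3, 0.0312%). CD8 against CD4 in KO gave 12 (without CD8 KO library 3) to 21, and in WT 18 (without CD8 WT library 2 or 3) to 33. The main fits called 24.1% of all genes in KO and 31.2% in WT. Without the share of all genes in each of the other fits, these counts describe only how far the calls moved. For CD4 library number the main fit called 4 members (18% of all genes). No filter gave 35 (13.2%), and the split of libraries 3 and 4 against 1 and 2 gave 11 (34.8%). Leaving out 1 library gave from 2 to 24 members. The 2 came without CD4 KO library 4 (10.4%) or CD4 WT library 3 (11.4%), and the 24 without CD4 Het library 3 (25.6%). For CD8 library number, against 1, leaving out 1 library gave from 0 to 5 members. The 0 came without library 1 of KO, Het or WT (0.618% to 0.827% of all genes), and the 5 without CD8 Het library 3 (5.6%). The ISRE core within 150 bases before the start was in 37.8% of promoters, against 56.8% in the whole window. The cause of these changes was not tested. A shorter window holds fewer bases, and some of the fits had only 2 libraries a group. Members near the floor of 3 counts, such as Ifit3b and Ifi44 in CD8 Het cells, are limited by depth.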
